A study of Rattus norvegicus with 12 samples.

Results

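The comparison described here sets rats given tetrandrine after experimental haemorrhage (SAH+Tet) against rats with haemorrhage alone (SAH). It rests on 6 of the 12 faecal libraries of the study, 3 for each group, which were chosen by their treatment labels alone. SAH is the usual short form of subarachnoid haemorrhage, and tetrandrine is a plant alkaloid that blocks calcium channels. The SAH group carries only the haemorrhage label, and the SAH+Tet group carries the haemorrhage and the tetrandrine labels. The 3 Sham libraries are given beside some results as a reference level, and the 3 libraries with antibiotics were not part of the comparison. The labels do not state strain, sex, age, dose, route, time of sampling or housing. The labels also do not say whether each library is a separate animal, so p-values measure only the spread between these libraries, which may be technical. A second treatment label names a cell differentiation protocol, is the same for every sample and was not used. The study asked whether the microbiota of the gut differs among the groups, as a possible link to the effect of tetrandrine on cognition.

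The measurement was the number of reads of each amplicon sequence variant (ASV), an exact sequence of part of the bacterial 16S ribosomal RNA gene. Reads were summed by family and by genus, and each value is a share of the reads of its library. A share is relative: fewer cells of one taxon and more cells of all others cannot be told apart. Of the 7238 ASVs of the study, 5355 had reads in these 6 libraries, in 324 genus-level and 165 family-level taxa. Where the lineage stopped above the genus or family, the reads were kept as "unnamed" followed by the last rank it gave. An ASV is named by its genus and by its rank in reads within that genus over the whole study.

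Rat faeces hold mostly strict anaerobes of the Firmicutes and Bacteroidota. The Lachnospiraceae, Oscillospiraceae and Ruminococcaceae are Clostridia that ferment fibre and mucin sugars, and many of them make butyrate or acetate, the short-chain fatty acids that feed the colon lining. Lactobacillaceae make lactate, Muribaculaceae and Prevotellaceae break down plant and host glycans, and Erysipelotrichales are Firmicutes often tied to diet and host lipid metabolism. Corynebacteriaceae, Staphylococcaceae and Aerococcaceae live on skin and fur and in bedding, and tolerate air.

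Depth was 248285, 531426 and 448795 reads in SAH 1 to 3, and 458010, 516810 and 227299 in SAH+Tet 1 to 3. SAH 1 and SAH+Tet 3 thus had fewer than 300000 reads, and the other 4 libraries had more. A count of 0 reads allows a share of up to 0.000565% to 0.00132% in the 6 libraries (3 reads of the total), which covers counting error only. The leading families in each library were Lachnospiraceae, Lactobacillaceae and Muribaculaceae or, in SAH+Tet 2, Corynebacteriaceae in the place of Lactobacillaceae. Apart from Corynebacteriaceae these are gut families, which goes with the label faeces but cannot tell it from other gut contents.

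Before any comparison, the SAH libraries showed a relation that replicates of the other groups did not have to the same degree. All 243 ASVs with at least 0.05% of reads in SAH 1 were also found in SAH 2, and their share in SAH 2 was a nearly constant part of their share in SAH 1, with a median ratio of 0.512 and quartiles of 0.445 and 0.584. Within 1.5-fold of that ratio lay 212 of them (87.2%), the highest share among the 132 ordered pairs of libraries in the study. The next 3 pairs were SAH 2 read against SAH 1 (49.6%), Sham 3 against Sham 1 (46.4%) and SAH 2 against SAH 3 (43.3%).

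The ratio was also seen in ASVs that SAH 3 hardly held. Of 151 ASVs with at least 0.02% in SAH 1 and less than 0.1 times that in SAH 3, 150 were found in SAH 2, at a median ratio of 0.472, and 141 lay within 1.5-fold of it. ASVs high in SAH 3 and nearly missing from SAH 1 were also found in SAH 2 in 274 of 320 cases, at a median ratio of 0.905 but with quartiles of 0.246 and 1.3. In the other direction, 240 ASVs had at least 0.02% in SAH 2 and less than 0.1 times that in SAH 1. Of these, 236 were found in SAH 3, at a median ratio of 0.825 with quartiles of 0.669 and 0.981. Within 1.5-fold of that ratio lay 182 (75.8%). Of the reads of SAH 2, 1.76% lay in ASVs that neither SAH 1 nor SAH 3 held, beside 0.909% for SAH 1 and 6.50% for SAH 3. The same share ran from 5.46% to 9.95% for the SAH+Tet libraries within their group and from 2.72% to 5.64% for the Sham libraries. Shares in SAH 2 therefore lay between or near those of SAH 1 and SAH 3 for much of the community, and why was not tested. SAH 1 and SAH 2 may not be independent, and the same holds for SAH 2 and SAH 3. It also holds for Sham 1 and Sham 3, where 46.4% of ASVs lay within 1.5-fold of the ratio, beside 43.3% for SAH 2 and SAH 3. For SAH 1 and SAH 2, some comparisons are also given without either or with both summed as 1 library. Where they are not given, a value may still change. The log2 difference of Lachnospiraceae, for example, was -0.16 over all libraries, 0.33 without SAH 1 and 0.07 with both summed.

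**Figure D1:**
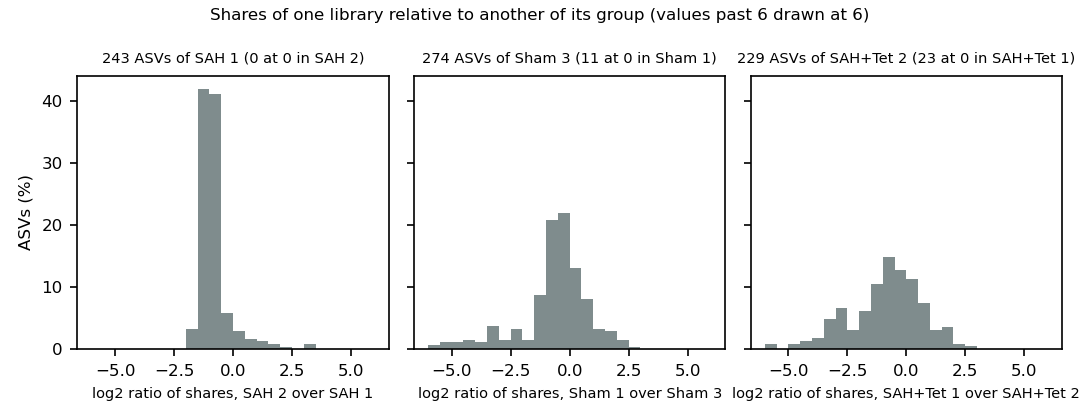
Histograms of the log2 ratio of shares between 2 libraries of one group, over the ASVs with at least 0.05% in the first library, with the percentage of those ASVs on the vertical axis. The 243 ASVs of SAH 1 form a narrow peak near the ratio of 0.512 in SAH 2, while the pairs drawn from Sham and SAH+Tet are broader.

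A group of aerobic Gram-positive families split the 6 libraries within both groups. The 10 families of this kind, led by Corynebacteriaceae, Staphylococcaceae and Aerococcaceae, took 0.10%, 13.5% and 12.4% of reads in SAH 1 to 3, and 13.7%, 20.8% and 0.0440% in SAH+Tet 1 to 3. They took 0.0285% to 0.0560% in the Sham libraries. The 2 libraries of low share within the comparison were those with fewer than 300000 reads, 1 in each group. Depth and these families thus moved together among the 6, while the Sham libraries were low at 495885 to 519889 reads. With these families left out of the counts, 2 families, 0 genera and 0 ASVs passed edgeR at an adjusted p of 0.05, and with the depth class as a block 7, 0 and 0 did, beside 2, 0 and 0 in the comparison as reported.

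At the level of families, the most abundant ones did not separate the groups. Lachnospiraceae made up 29.6%, 16.1% and 17.5% of reads in the SAH libraries and 21.8%, 18.2% and 26.0% in the SAH+Tet libraries. Muribaculaceae made up 12.7%, 13.4% and 15.3% in SAH and 11.8%, 8.52% and 17.1% in SAH+Tet. Both families overlapped between groups, as did Prevotellaceae, Ruminococcaceae, Peptostreptococcaceae and Clostridia UCG-014. Lactobacillaceae ran from 10.2% to 26.5% in SAH and from 6.00% to 14.3% in SAH+Tet, also with overlap. Of the 17 families with a mean of at least 1% over the 6 libraries, 2 did not overlap: Oscillospiraceae was higher and Bacteroidaceae lower in all 3 SAH+Tet libraries.

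**Figure D2:**
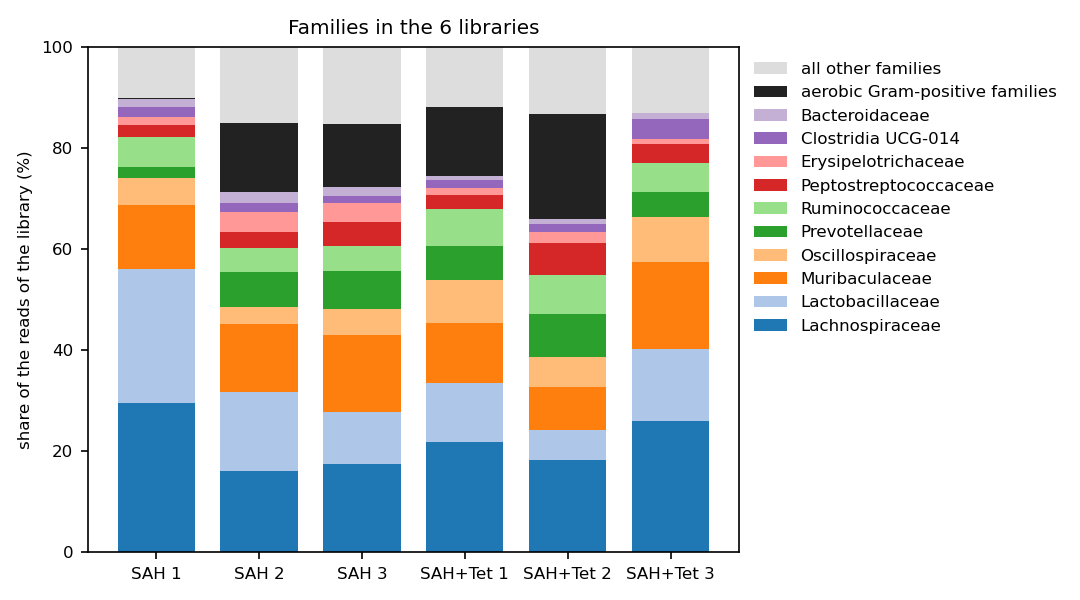
Stacked bars of the share of reads (%) of the 10 most abundant families other than the aerobic Gram-positive ones, of those 10 aerobic families together and of all others, in the 3 SAH and 3 SAH+Tet libraries. The black aerobic segment is 12.4% to 20.8% in 4 libraries and 0.10% or less in SAH 1 and SAH+Tet 3.

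Oscillospiraceae, slow-growing fibre fermenters, stood at 5.28%, 3.52% and 5.08% in SAH and 8.47%, 5.94% and 8.91% in SAH+Tet. Every SAH+Tet library was above every SAH library, and the means were 4.63% ± 0.962 and 7.77% ± 1.60 (SD, n = 3 each). The difference did not pass the test (log2 difference 0.57, edgeR adjusted p = 0.455). Bacteroidaceae, glycan degraders represented here by the genus Bacteroides, stood at 1.54%, 2.19% and 1.87% in SAH and 0.651%, 0.917% and 1.22% in SAH+Tet. All 3 SAH+Tet values were below all 3 SAH values, and this too did not pass (log2 difference -1.16, edgeR adjusted p = 0.213).

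Of 92 families tested, 2 passed edgeR's quasi-likelihood test at an adjusted p of 0.05 (2.17%), and both were lower in SAH+Tet, although 1 of them, Coriobacteriaceae, entered the test only through the SAH libraries. At an unadjusted p under 0.05 there were 13 families, 1 higher (1.09%) and 12 lower (13.0%), or 3 higher and 9 lower when scaled by library totals and 8 higher and 8 lower without SAH+Tet 3. The groups did not overlap in 13 of the 92 (14.1%), 4 higher (4.35%) and 9 lower (9.78%). Erysipelatoclostridiaceae, a family of gut Firmicutes, stood at 0.559%, 0.311% and 0.336% in SAH and 0.0170%, 0.0339% and 0.0484% in SAH+Tet. All SAH libraries were above all SAH+Tet libraries by a wide gap, and the Sham libraries, at 0.0113%, 0.0319% and 0.0487%, lay close to those of SAH+Tet. The family fell 12.1-fold in mean share (log2 difference -3.83, edgeR adjusted p = 0.0442).

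Its members show where that difference lay. Candidatus Stoquefichus took 0.173%, 0.103% and 0.135% in SAH and 0.0103%, 0.0211% and 0.0163% in SAH+Tet. Erysipelotrichaceae UCG-003 took 0.355%, 0.190% and 0.170% in SAH, and 0 reads, 0.00445% and 0.0308% in SAH+Tet. Erysipelatoclostridium, a genus that includes bile acid modifying species, took 0.0306%, 0.0164% and 0.0196% in SAH and 0.00480%, 0.00793% and 0.00132% in SAH+Tet. In each of the 3 genera every SAH library was above every SAH+Tet library, and none passed the test as a single genus (edgeR adjusted p = 0.0802, 0.271 and 0.158).

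Coriobacteriaceae, the second family that passed, consisted of a single ASV of Collinsella, an actinobacterium that modifies bile acids. It held 0.0105%, 0.0109% and 0.0107% of reads in the SAH libraries and 0 reads in all SAH+Tet and all Sham libraries. The shares in the 3 SAH libraries were nearly equal. The SAH mean was at least 12.6-fold above 3 reads per SAH+Tet library (edgeR adjusted p = 0.0442). The family entered the test only through the SAH libraries, where it was found, so it had to differ, and its p supports no difference by itself.

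Erysipelatoclostridiaceae was also among the 9 families called by DESeq2 (9.78% of 92, adjusted p = 4.13e-05) and the 7 called with the depth class as a block in edgeR (7.61%, adjusted p = 0.0176), and Coriobacteriaceae was among both as well. Neither call was made in the fits without Sham 2, without Sham 3, or without any single SAH or SAH+Tet library, where the lowest adjusted p of any family was 0.0575 to 0.195, nor with SAH 1 and SAH 2 summed (0.156). Both calls were also lost with the 6 libraries fitted alone (edgeR adjusted p = 0.0726 for each) and without the filter on low counts (0.11 for each), and limma on centred log-ratios did not call Erysipelatoclostridiaceae (adjusted p = 0.253). Without a SAH library, Collinsella had reads in fewer than 3 libraries and was not tested. For Erysipelatoclostridiaceae the log2 difference stayed between -4.16 and -3.35 over all 19 other settings.

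The other families of smallest p that did not overlap were minor ones. Unnamed Coriobacteriales, relatives of Collinsella, stood at 0.0193%, 0.0395% and 0.0336% in SAH and 0.00983%, 0.00580% and 0.00352% in SAH+Tet (edgeR adjusted p = 0.106 as a family and 0.0802 as a genus-level taxon). They had reads in all 9 libraries of the fit, unlike Collinsella. Sutterellaceae, here the asaccharolytic genus Parasutterella, stood at 0.321%, 0.620% and 0.398% in SAH and 0.118%, 0.0437% and 0.108% in SAH+Tet (edgeR adjusted p = 0.174). Methanomethylophilaceae, methane-forming archaea, stood at 0.00564%, 0.00226% and 0.00379% in SAH, and at 0.000655%, 0 reads and 0 reads in SAH+Tet (edgeR adjusted p = 0.174). The SAH libraries were the higher ones in both, the second on very few reads. On the higher side, unnamed Rhodospirillales stood at 0.0222% to 0.0495% in SAH and 0.0559% to 0.0786% in SAH+Tet, and Rhizobiaceae at 0.0271% to 0.0298% and 0.0389% to 0.0427%, with edgeR adjusted p = 0.539 and 0.786.

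At the genus level, 0 of 186 genera passed edgeR at an adjusted p of 0.05 (0.0%), where the smallest adjusted value was 0.0802. Without adjustment, 35 genera (18.8%) had p under 0.05, 11 of them higher (5.91%) and 24 lower (12.9%) in SAH+Tet. DESeq2 on the same counts called 31 genera (16.7%), 9 higher and 22 lower, and limma on centred log-ratios called 1 (0.538%), Collinsella (adjusted p = 0.0137). The groups did not overlap in 44 genera (23.7%), of which 24 were higher (12.9%) and 20 lower (10.8%). The median log2 difference over all 186 genera was 0.16, and it was 0.35 when scaled by library totals and 0.41 with centred log-ratios, and -0.15 among the libraries of higher depth, so a difference near these values carries no direction of its own.

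**Figure D3:**
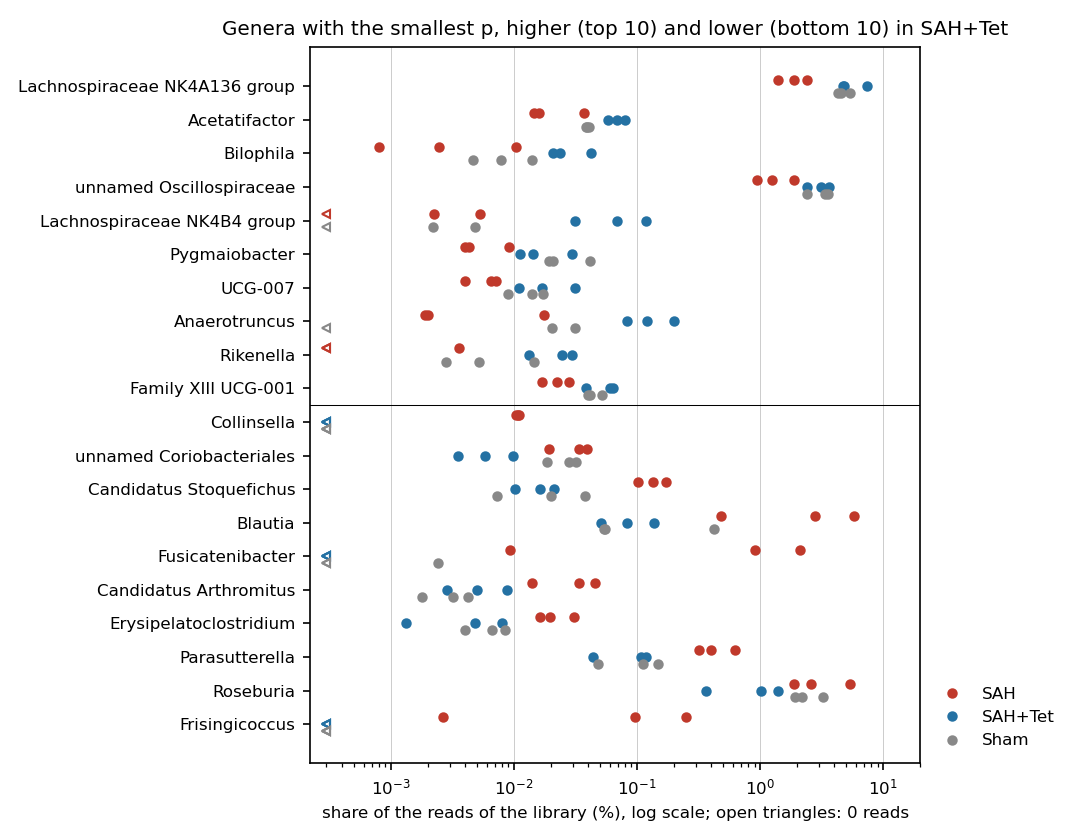
Shares of reads (%, log axis) of the 10 genera higher and the 10 genera lower in SAH+Tet with the smallest p among those whose groups do not overlap, each library a point, with Sham as a reference and libraries with 0 reads as open triangles at the left edge. Red SAH and blue SAH+Tet points are apart in each row because rows were chosen for that, and 0 of these genera passed the test over 186.

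Among the fibre fermenters that were higher, the Lachnospiraceae NK4A136 group, a cluster of rodent gut Lachnospiraceae counted among butyrate producers, stood at 1.90%, 1.40% and 2.41% in SAH and 4.70%, 7.38% and 4.78% in SAH+Tet. All SAH+Tet libraries were above all SAH libraries and the Sham libraries, at 4.27% to 5.36%, lay with or just below them. The log2 difference was 1.39 (SE 0.28) and the edgeR adjusted p was 0.0802, which misses the threshold, and it stayed between 1.20 and 1.64 over 19 other settings. Unnamed Oscillospiraceae stood at 1.24%, 0.935% and 1.89% in SAH and 3.62%, 2.40% and 3.10% in SAH+Tet. Again no SAH library reached a SAH+Tet library (log2 difference 1.03, SE 0.35, edgeR adjusted p = 0.184).

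The remaining higher genera were rare. Acetatifactor, a Lachnospiraceae genus first isolated from an obese mouse, stood at 0.0161%, 0.0147% and 0.0372% in SAH and 0.0686%, 0.0577% and 0.0796% in SAH+Tet. Anaerotruncus, a butyrate-forming genus of the Oscillospirales, stood at 0.00201%, 0.00188% and 0.0176% in SAH and 0.0830%, 0.121% and 0.198% in SAH+Tet. The Lachnospiraceae NK4B4 group stood at 0 reads, 0.00226% and 0.00535% in SAH and 0.0692%, 0.0315% and 0.118% in SAH+Tet. In all 3 genera SAH 3 was the highest SAH library and was still below the lowest SAH+Tet library, with edgeR adjusted p = 0.158, 0.233 and 0.193.

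Bilophila, which reduces the sulfur of bile acid taurine to hydrogen sulfide, stood at 0.000806%, 0.00245% and 0.0105% in SAH and 0.0238%, 0.0209% and 0.0422% in SAH+Tet (edgeR adjusted p = 0.184). Rikenella, a Bacteroidales genus, had reads in only 1 SAH library, SAH 2 at 0.00358%, and stood at 0.0247%, 0.0298% and 0.0132% in SAH+Tet (edgeR adjusted p = 0.253). Both were low in every SAH library. Pygmaiobacter, UCG-007 and Family XIII UCG-001, 3 further Clostridia, had means of 0.00583%, 0.00588% and 0.0225% in SAH and 0.0184%, 0.0197% and 0.0542% in SAH+Tet, with edgeR adjusted p of 0.212, 0.212 and 0.258.

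Other Lachnospiraceae were lower, and their SAH values differed widely among libraries. Blautia, an acetate producer that uses hydrogen and carbon dioxide, stood at 5.76%, 2.77% and 0.476% in SAH and 0.138%, 0.0513% and 0.0832% in SAH+Tet. SAH 3 was nearest to the SAH+Tet range and still above it. Fusicatenibacter, a sugar fermenter close to Blautia, stood at 2.12%, 0.900% and 0.00936% in SAH and at 0 reads in all 3 SAH+Tet libraries. Frisingicoccus, a further Lachnospiraceae genus, stood at 0.251%, 0.0962% and 0.00267% in SAH and also at 0 reads in SAH+Tet. For both, SAH 1 and SAH 2 held nearly all reads.

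Roseburia, a flagellated butyrate producer, stood at 5.40%, 2.57% and 1.90% in SAH and 1.39%, 1.02% and 0.365% in SAH+Tet. Its groups came within a factor of 1.5 of each other, at SAH 3 and SAH+Tet 1. The edgeR adjusted p was 0.115 for Blautia and 0.158 for each of Fusicatenibacter, Frisingicoccus and Roseburia. Frisingicoccus, a single ASV, entered the test only through the SAH libraries. It had to differ, so its p supports no difference by itself. The SAH 2 over SAH 1 ratio was 0.481 for Blautia, 0.424 for Fusicatenibacter, 0.383 for Frisingicoccus and 0.477 for Roseburia, close to the median ratio of 0.512 between the ASVs of these libraries. Without SAH 1 the log2 difference of Roseburia was -1.31 in place of -2.15, and that of Blautia -4.18 in place of -5.38. With SAH 1 and SAH 2 summed they were -1.64 and -4.64.

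The list of short-chain fatty acid producing Clostridia had members on both sides. Of 36 names, 26 were tested and 0 passed. Their log2 difference was above 0 in 17 and below 0 in 9, with a median of 0.55 beside 0.16 for all genera. Groups did not overlap in 10 of them (38.5%, beside 23.7% of all genera), 6 higher (NK4A136 group, Acetatifactor, Anaerotruncus, Intestinimonas, Colidextribacter and the Eubacterium ventriosum group) and 4 lower (Blautia, Fusicatenibacter, Roseburia and Marvinbryantia). The summed share of the list was 23.9%, 15.3% and 13.5% in SAH and 17.0%, 20.6% and 13.3% in SAH+Tet, with the groups overlapping.

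All 7 tested genera of the lactic acid bacteria and bifidobacteria had a log2 difference below 0, beside 82 of all 186 genera, with a median of -2.29. The count was also 7 of 7 with DESeq2, library totals and centred log-ratios, which use the same libraries and add no separate support. The list was chosen with earlier results of these data known, so its count supports no difference by itself. None of the 7 passed, 2 had an unadjusted p under 0.05 (18.8% of all genera did), and in 1 the groups did not overlap (14.3%, beside 23.7% of all genera). Lactobacillus, the main lactate producer of the rat gut, stood at 26.5%, 15.5% and 10.1% in SAH and 11.7%, 5.98% and 14.3% in SAH+Tet. SAH+Tet 1 and SAH+Tet 3 were both above SAH 3, and SAH+Tet 3 was near SAH 2, so the groups overlapped (edgeR adjusted p = 0.388). Streptococcus, the genus without overlap, stood at 0.381%, 0.167% and 0.188% in SAH and 0.0880%, 0.0826% and 0.155% in SAH+Tet (edgeR adjusted p = 0.271).

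Bifidobacterium, which ferments host and dietary oligosaccharides to acetate and lactate, stood at 0.0975%, 1.03% and 0.897% in SAH and 0.129%, 0.0418% and 0.0123% in SAH+Tet. SAH 1 was below SAH+Tet 1, while SAH 2 and SAH 3 were far above all SAH+Tet libraries (edgeR adjusted p = 0.158). Weissella, a lactic acid bacterium of plant feed, was at 0 reads in SAH 1, 0.522% in SAH 2 and 0.465% in SAH 3, and stood at 0.00699%, 0.0147% and 0 reads in SAH+Tet. For both genera the 2 low-depth libraries were the lowest or at 0 within their group.

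The Erysipelotrichales list had 6 of its 7 tested genera below 0, beside 82 of all 186 genera, with a median log2 difference of -3.30. The count was 6 of 7 under the same 3 other scalings, which use the same libraries. This list too was chosen with earlier results known, so its count supports no difference by itself. None of the 7 passed, and in 3 the groups did not overlap (42.9%, beside 23.7% of all genera). Candidatus Stoquefichus and Erysipelotrichaceae UCG-003 are among the 7, so the list partly restates the result for Erysipelatoclostridiaceae. The summed share was 1.86%, 4.12% and 3.93% in SAH and 1.19%, 1.97% and 0.794% in SAH+Tet, with SAH 1 below SAH+Tet 2. Dubosiella, a lactate-forming rodent gut genus, made up most of that sum in SAH 2 and SAH 3, and stood at 0.322%, 3.11% and 2.82% in SAH and 0.399%, 0.115% and 0.0312% in SAH+Tet. SAH 1 lay below SAH+Tet 1, and the groups overlapped (edgeR adjusted p = 0.223). Turicibacter, which modifies host bile acids and lipids, was the member above 0, at 0.130%, 0.285% and 0.690% in SAH and 0.733%, 1.79% and 0.564% in SAH+Tet, with SAH 3 inside the SAH+Tet range (edgeR adjusted p = 0.258). The Sham libraries held 2.01% to 2.20% of Turicibacter.

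**Figure D4:**
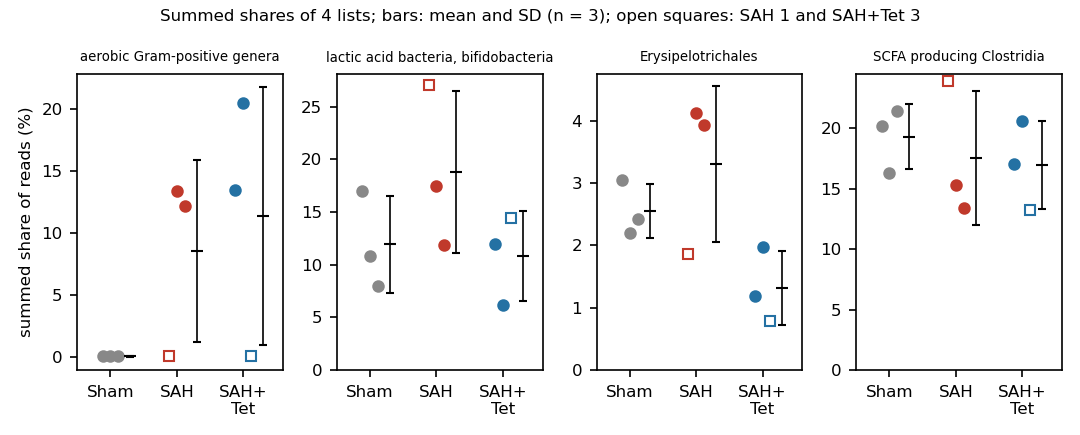
Summed share of reads (%) of 4 lists of genera in each Sham, SAH and SAH+Tet library, with the mean and SD of each group (n = 3) and open squares for the low-depth libraries SAH 1 and SAH+Tet 3. The aerobic genera are near 0 in both open squares, while the Erysipelotrichales lie at 1.86% to 4.12% in SAH and 0.794% to 1.97% in SAH+Tet.

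The other lists stayed near the median of all genera or held few members. The Bacteroidales had 7 genera above and 8 below 0, a median log2 difference of -0.08 that turned to 0.23 with library totals and 0.30 with centred log-ratios. Their sums were 16.6%, 22.4% and 24.9% in SAH and 18.7%, 18.0% and 23.4% in SAH+Tet. Among Proteobacteria and other opportunistic Gram-negative genera, 4 of 7 were above 0 (3 of 7 with DESeq2), with a median of 0.03. Escherichia-Shigella, which holds the common gut enterobacteria, stood at 0.0129%, 0.183% and 0.238% in SAH and 0.0218%, 0.0151% and 0.00792% in SAH+Tet, so SAH 2 and SAH 3 were high and SAH 1 lay among the SAH+Tet values (edgeR adjusted p = 0.158). Pseudomonas was nearly level, at 0.663% to 0.881% in SAH and 0.832% to 0.909% in SAH+Tet.

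Of the mucin and sulfate users, 3 of 4 tested genera were above 0, with a median of 1.29. Among the libraries of higher depth the count was 2 of 4 and the median 0.57, and with SAH 1 and SAH 2 summed it was 2 of 4 and 0.89. Akkermansia, the mucin degrader that reached 1.09% to 5.44% in the Sham libraries, was at 0 reads in SAH 1 and SAH+Tet 3 and at most 0.0478% in any of the 6 libraries. Of the sterol, bile acid and polyphenol transformers, 2 of 5 were above 0 and 3 below (median -0.35). The Eubacterium coprostanoligenes group, which reduces cholesterol to coprostanol, stood at 0.989%, 1.30% and 1.83% in SAH and 1.47%, 1.38% and 0.800% in SAH+Tet, with overlap. Candidatus Arthromitus, the segmented filamentous bacteria that attach to the ileum and induce T helper cells, belonged to the 4 spore-forming clostridia tested, of which 2 were above and 2 below 0 (median 0.03), or 3 and 1 with library totals and with centred log-ratios. Among the libraries of higher depth all 4 were below 0 (median -0.28). Candidatus Arthromitus stood at 0.0338%, 0.0141% and 0.0459% in SAH and 0.00284%, 0.00503% and 0.00880% in SAH+Tet, with every SAH library above every SAH+Tet library (edgeR adjusted p = 0.158).

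The 9 tested aerobic genera had 5 members above and 4 below 0, with a median log2 difference of 0.02 that was -0.06 among the higher-depth libraries and -0.12 with SAH 1 and SAH 2 summed. They were abundant in 4 libraries, SAH 2, SAH 3, SAH+Tet 1 and SAH+Tet 2. Corynebacterium was above Staphylococcus in all 4, and Staphylococcus was sizeable only in SAH+Tet 1 and SAH+Tet 2. Staphylococcus stood at 0.0109%, 0.0802% and 0.0758% in SAH and 2.36%, 3.92% and 0.00704% in SAH+Tet. Corynebacterium stood at 0.0451%, 10.2% and 9.40% in SAH and 7.19%, 10.3% and 0.0106% in SAH+Tet. SAH+Tet 3 was the lowest of all 6 libraries for both. Among the higher-depth libraries alone, with 2 of each group and the 3 Sham libraries, Staphylococcus was the 1 genus that passed (log2 difference 5.01, edgeR adjusted p = 0.0159), and over all libraries its adjusted p was 0.184. That subset left out SAH+Tet 3, the SAH+Tet library with hardly any Staphylococcus. Its SAH libraries were SAH 2 and SAH 3, which may not be independent, so its p supports no difference by itself.

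Within Corynebacterium the same 4 libraries shared ASV 1 and differed in ASV 2. Corynebacterium ASV 1 stood at 0.0121%, 5.23% and 4.76% in SAH and 5.71%, 8.16% and 0.00616% in SAH+Tet. Corynebacterium ASV 2 stood at 0.0133%, 3.23% and 2.96% in SAH and 0.10%, 0.154% and 0 reads in SAH+Tet. The first was high in all 4 libraries, and the second was high only in SAH 2 and SAH 3. Staphylococcus ASV 1, named Staphylococcus lentus in the deposited lineage, was at 0 reads in all SAH libraries and SAH+Tet 3, and at 1.36% and 2.15% in SAH+Tet 1 and 2.

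Other abundant genera overlapped between the groups and are given by their shares. Unnamed Lachnospiraceae stood at 10.1%, 6.23% and 9.64% in SAH and 11.9%, 6.79% and 17.8% in SAH+Tet, and SAH+Tet 3 was the highest. Romboutsia, a gut clostridium of the Peptostreptococcaceae, stood at 2.40%, 3.18% and 4.83% in SAH and 2.76%, 6.37% and 3.85% in SAH+Tet. UCG-005, of the Oscillospiraceae, stood at 3.21%, 1.71% and 1.61% in SAH and 2.47%, 1.77% and 4.02% in SAH+Tet. For these genera the spread within each group was as wide as the distance between the group means.

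Prevotella, a degrader of plant polysaccharides, followed the depth classes. It stood at 0.0572%, 1.73% and 0.946% in SAH and 2.08%, 1.55% and 0.0462% in SAH+Tet. SAH 1 and SAH+Tet 3 were far below the other 4 libraries, and its 3 main ASVs had 0 reads in both of them. Clostridium sensu stricto 1, the genus of the classical clostridia, stood at 0.193%, 1.48% and 1.42% in SAH and 0.685%, 1.95% and 0.630% in SAH+Tet, and the same 2 libraries were the lowest of their groups. Alloprevotella, a related glycan degrader, did not follow them, at 0.833%, 1.01% and 3.76% in SAH and 1.91%, 3.08% and 2.93% in SAH+Tet.

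At the level of single variants, 0 of 2283 ASVs passed edgeR at an adjusted p of 0.05 (0.0%), where the smallest adjusted value was 0.179. Without adjustment, 474 ASVs (20.8%) had p under 0.05, 277 of them higher (12.1%) and 197 lower (8.63%) in SAH+Tet, beside 209 higher and 222 lower with centred log-ratios. DESeq2 called 293 (12.8%) and limma on centred log-ratios 112 (4.91%). The groups did not overlap in 366 ASVs (16.0%), 224 of them higher (9.81%) and 142 lower (6.22%). An ASV found in the 3 libraries of a single group enters the test through that group and cannot overlap, so these counts describe the ASVs tested and support no difference by themselves.

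Several ASVs were found in all 3 libraries of one group at sizeable shares and in no library of the other. Muribaculaceae ASV 34 had 0 reads in SAH and in Sham, and stood at 0.239%, 0.353% and 0.348% in SAH+Tet. Muribaculaceae ASV 23 had 0 reads in SAH and stood at 0.412%, 0.425% and 0.489% in SAH+Tet. These 2 were the most even among the SAH+Tet libraries of the 8 higher ASVs named by the rule, and their means were at least 385-fold and 543-fold above 3 reads per SAH library. The edgeR adjusted p was 0.179 for both.

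In the Lachnospiraceae and Ruminococcaceae, the higher ASVs varied more among the SAH+Tet libraries. Lachnospiraceae NK4A136 group ASV 4 had 0 reads in SAH and stood at 0.156%, 1.83% and 0.204% in SAH+Tet. Unnamed Lachnospiraceae ASV 5 stood at 0 reads, 0.00188% and 0.00936% in SAH and 0.794%, 0.626% and 3.45% in SAH+Tet. Ruminococcus ASV 2 had 0 reads in SAH and stood at 1.45%, 1.25% and 0.0282% in SAH+Tet. A different library led in each of the 3, and none passed (edgeR adjusted p = 0.179 for each). Monoglobus ASV 12, of a pectin-degrading genus, unnamed Lachnospiraceae ASV 15 and Lachnospiraceae UCG-001 ASV 1 completed the 8, with SAH+Tet means of 0.124%, 0.433% and 0.220% and 0 reads in SAH.

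On the lower side, 6 of the 8 named ASVs were highest in SAH 1 and lowest in SAH 3. Blautia ASV 2 stood at 0.819%, 0.422% and 0.0544% in SAH and 0 reads in SAH+Tet, and Blautia ASV 9 at 0.244%, 0.132% and 0.0267%. Fusicatenibacter ASV 2 stood at 0.732%, 0.307% and 0.00936%, and unnamed Lachnospiraceae ASV 53 at 0.363%, 0.155% and 0.00602%. Unnamed Lachnospiraceae ASV 74 stood at 0.184%, 0.109% and 0.0517%. Each of these 5 had 0 reads in SAH+Tet and Sham.

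Ruminococcus ASV 20 and Blautia ASV 8 were less uneven, at 0.321%, 0.113% and 0.319% and at 0.114%, 0.0589% and 0.164% in SAH, with 0 reads in SAH+Tet and Sham. Lactobacillus ASV 6, the last of the 6, stood at 0.348%, 0.138% and 0.102% in SAH and 0 reads in SAH+Tet, and had reads in 2 Sham libraries. Against 3 reads per library, the 8 lower ASVs were at least 132-fold to 507-fold higher in SAH, with an edgeR adjusted p of 0.179 for each.

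Within a genus, different ASVs lay on opposite sides. Lactobacillus ASV 1 stood at 19.7%, 11.2% and 6.58% in SAH and 5.61%, 1.97% and 4.47% in SAH+Tet. Lactobacillus ASV 2, named Lactobacillus intestinalis in the deposited lineage, stood at 0.942%, 0.616% and 0.836% in SAH and 3.46%, 2.05% and 7.59% in SAH+Tet. Neither overlapped between groups, although the genus as a whole did, and neither passed (log2 differences -1.70 and 2.20, edgeR adjusted p = 0.241 and 0.195). In Sham the first stood at 2.40% to 10.3% and the second at 0.959% to 4.14%.

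Ruminococcus, a genus of fibre and starch degraders with overlapping totals of 2.72% to 4.89% in SAH and 2.88% to 5.74% in SAH+Tet, showed the same kind of exchange. Ruminococcus ASV 1 stood at 2.26%, 1.09% and 0.197% in SAH and at 0.00109%, 0.00155% and 0 reads in SAH+Tet, while Ruminococcus ASV 2 had reads only in SAH+Tet of the 2 groups. SAH+Tet 3 held little of either ASV. In Roseburia, ASV 1 made up 5.13% and 2.27% of reads in SAH 1 and SAH 2 but 0.0319% in SAH 3, where ASV 2 stood at 1.27%. In SAH+Tet, ASV 1 stood at 0.244%, 0.00697% and 0.0220%, so SAH 3 lay inside that range. The lower Roseburia share in SAH+Tet thus involved different variants depending on which SAH library it was read against.

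**Figure D5:**
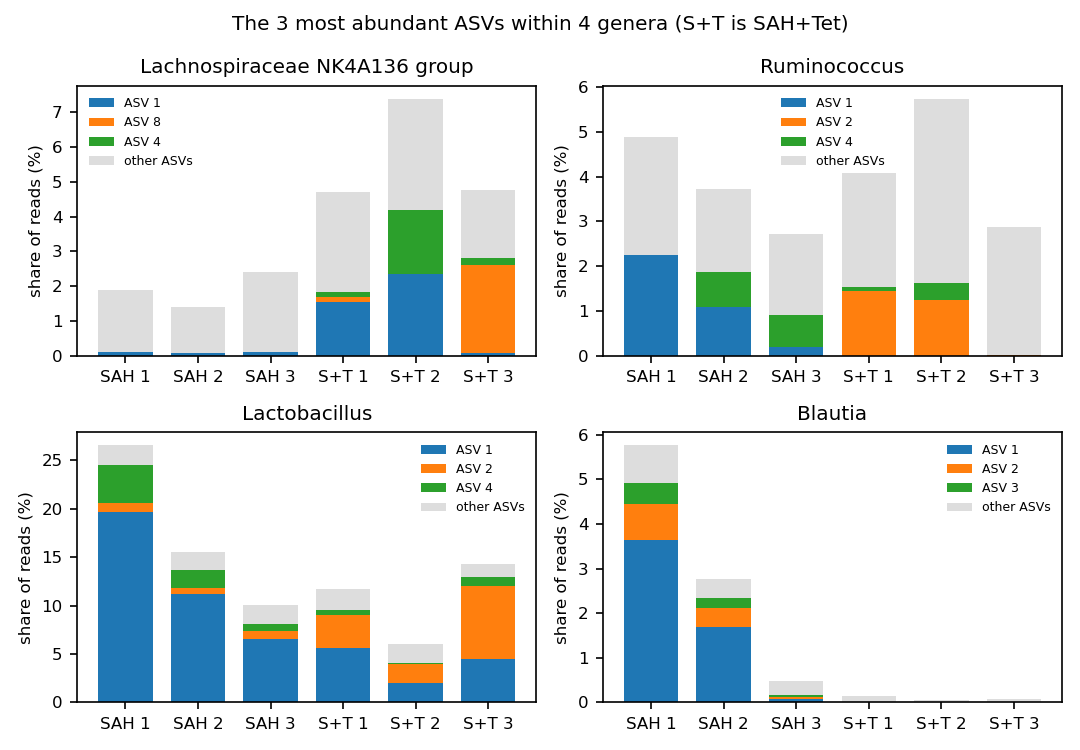
Stacked bars of the share of reads (%) of 4 genera in each SAH and SAH+Tet library, divided into the 3 ASVs with the highest mean share over the 6 libraries and all other ASVs of the genus. Lactobacillus ASV 1 is 6.58% to 19.7% in SAH and 1.97% to 5.61% in SAH+Tet while ASV 2 is 0.616% to 0.942% in SAH and 2.05% to 7.59% in SAH+Tet, and the leading ASV of the NK4A136 group differs between SAH+Tet libraries.

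Within the unnamed Lachnospiraceae, the 3 main ASVs each had their own pattern. ASV 4 stood at 2.56%, 1.29% and 0.162% in SAH and at 0 reads, 0.00213% and 0 reads in SAH+Tet, with a SAH 2 over SAH 1 ratio of 0.504 (log2 difference -10.41, edgeR adjusted p = 0.179). ASV 8 was found in 1 of the 6 libraries, SAH+Tet 3, where it made up 4.64% of reads. ASV 5, described above, was high in all 3 SAH+Tet libraries. In Clostridia UCG-014, ASV 2 was also led by SAH+Tet 3, at 1.62% beside 0.00895% and 0.0517% in SAH+Tet 1 and 2, and in SAH it had reads only in SAH 3 (0.00802%). Bacteroides ASV 3 stood at 0.0793%, 0.0422% and 0.575% in SAH and had reads in SAH+Tet 2 alone of its group (0.00116%), so here SAH 3 was the highest library (edgeR adjusted p = 0.179).

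The higher share of the NK4A136 group was carried by different ASVs in different libraries. ASV 1 stood at 0.123%, 0.0736% and 0.118% in SAH and 1.56%, 2.37% and 0.0959% in SAH+Tet. ASV 8 had 0 reads in SAH and stood at 0.122%, 0 reads and 2.51% in SAH+Tet. ASV 1 thus led in SAH+Tet 1 and 2 and ASV 8 in SAH+Tet 3. Of the 69 ASVs of the genus that were tested, 5 were higher without overlap (7.25%) and 1 lower (1.45%), below the 9.81% and 6.22% of all ASVs.

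Some other taxa departed further from these background shares. Of 205 tested ASVs of unnamed Oscillospiraceae, 42 were higher without overlap (20.5%) and 2 lower (0.976%). Of 13 Blautia ASVs, 0 were higher and 7 lower (53.8%). Of 459 ASVs of unnamed Lachnospiraceae, 57 were higher (12.4%) and 36 lower (7.84%), and of 239 Muribaculaceae ASVs, 12 were higher (5.02%) and 23 lower (9.62%). The unnamed Lachnospiraceae thus held ASVs on both sides near the background. The Muribaculaceae held both but leaned lower, where all ASVs leaned higher (9.81% higher and 6.22% lower). The unnamed Oscillospiraceae and Blautia ASVs without overlap lay mostly on one side. However, 20 unnamed Oscillospiraceae ASVs had reads in all 3 SAH+Tet and no SAH libraries, and 5 Blautia ASVs the reverse, so these could not overlap. At an unadjusted p under 0.05 (edgeR), 36 unnamed Oscillospiraceae ASVs were higher and 10 lower, and 2 Blautia ASVs were higher and 8 lower. ASVs of one genus share libraries and are not independent, and these shares were not tested.

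By presence, 308 ASVs had reads in all 6 libraries and took 48.1% to 61.2% of their reads. A set of 127 ASVs was found in all 3 SAH+Tet libraries and in no SAH library, and took 6.04%, 6.49% and 5.20% of the SAH+Tet reads. It held 56 Lachnospiraceae, 28 Oscillospiraceae and 10 Ruminococcaceae ASVs, and 84 of the 127 also had reads in at least 1 Sham library. The reverse set, found in all 3 SAH libraries and no SAH+Tet library, had 60 ASVs and took 4.94%, 2.65% and 3.14% of the SAH reads. It held 26 Lachnospiraceae ASVs, 5 of the 60 were Blautia, and 20 also had reads in Sham. Depth differs among the libraries, and the reads of the SAH libraries are related as described, so the sizes of the sets depend on both.

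Diversity did not separate the groups. At 227299 reads, the depth of the smallest library, the expected number of ASVs was 1168, 2167 and 1951 in SAH and 2492, 2400 and 1328 in SAH+Tet. SAH 1 and SAH+Tet 3, the 2 low-depth libraries, were lowest, although depth was made equal. The mean difference was 311 ASVs (two-sided exact permutation p = 0.5, n = 3 each, where 0.1 is the smallest p possible), 14.4 ASVs without SAH 1, 684 without SAH+Tet 3, and -76.6 with SAH 1 and SAH 2 summed. The Shannon index was 4.77, 5.49 and 5.71 in SAH and 5.89, 5.56 and 5.19 in SAH+Tet, with a mean difference of 0.222 (exact permutation p = 0.6, n = 3 each) that was -0.0550 without SAH 1. The log2 ratio of Firmicutes to Bacteroidota was 2.25, 1.28 and 1.15 in SAH and 1.76, 1.82 and 1.60 in SAH+Tet (mean difference 0.17, exact permutation p = 0.7, n = 3 each), and the difference was -0.04 without SAH 3.

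The composition as a whole was on average farther apart between groups than within. The Bray-Curtis distance of ASV shares, which is 0 for equal and 1 for disjoint communities, was 0.349 to 0.653 within SAH, 0.413 to 0.650 within SAH+Tet and 0.536 to 0.748 between them, so the ranges overlapped. Group explained 37.8% of the squared distance (exact permutation p = 0.1, n = 3 each, the smallest p that 20 arrangements of 3 against 3 can give), and 31.3% at the genus level (p = 0.3, the same exact permutation test). Without SAH 2 it explained 32.2% (exact permutation p = 0.3, n = 2 and 3). Among the 4 higher-depth libraries it explained 63.9% (exact permutation p = 0.333, n = 2 each, the smallest possible there). The SAH libraries there were SAH 2 and SAH 3, at 0.349 the closest pair of the 6 libraries, and they may not be independent. Shares explained with different numbers of libraries cannot be compared, so 63.9% does not show a stronger separation than 37.8%.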

How the data were processed

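The deposited values are raw read counts per ASV with lineage, as the authors gave them, and fastp and cutadapt are named, without version, in the submitters' processing notes. The sources used here do not give the denoiser, 16S region, primers or taxonomy database, which set how many ASVs appear and which names they carry. The series table held 7240 ASVs, equal to the per-sample tables in all 12 libraries. The 2 Eukaryota ASVs were left out. ASV, genus and family counts were tested with edgeR 4.0.16 (quasi-likelihood, TMM, R 4.3.3) in 1 fit of the 9 SAH, SAH+Tet and Sham libraries, on taxa with at least 10 reads in at least 3 libraries, with Benjamini-Hochberg adjustment and a threshold of 0.05. The SE is the log2 difference divided by the root of the F statistic. Alternatives used DESeq2 1.42.0, limma 3.58.1 on centred log-ratios (0.5 reads added), other scaling, filters, blocks and library subsets. The code was tested on simulated data. A fold against a group at 0 reads was set against 3 reads per library and is a lower bound.

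Taxa were named by rule: families and genera with a mean of at least 1%, those past the threshold, those of smallest p without overlap (5 families, 10 genera with at least 0.01% and 8 ASVs with at least 0.1% each way), up to 4 members of each of 9 lists (143 names), and the 3 main ASVs of genera of at least 1%. Members and lists were chosen with earlier results of these data known. Taxa named outside the rule, such as members of a count, were chosen after their values were seen. Same-numbered libraries did not deviate together throughout (correlations of deviations -0.588, 0.496 and -0.452), so no pairing was used in the main fit. With 3 libraries a group, these values cannot exclude a pairing.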

Additional observations from a re-analysis of the deposited data

How the results depend on the processing

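The 2 families called became 9 with DESeq2, 7 with the depth class as a block, 6 with the higher depth class alone, 1 with limma, 0 without the filter on low counts, 0 with the 6 libraries fitted alone, 0 with SAH 1 and SAH 2 summed (a choice made after seeing the data) and 0 to 2 when a library was left out. The 0 genera became 31 with DESeq2, 1 with limma, 1 with the higher depth class alone, and 0 to 1 when a library was left out, the 1 being ASF356 without SAH 3 (log2 difference 11.55, edgeR adjusted p = 0.0179). The 0 ASVs became 293 with DESeq2, 112 with limma and 90 without the filter (46 higher, 44 lower), and stayed 0 when any library was left out. With the replicate number as a block there were 0 families, 0 genera and 0 ASVs, and the numbers were not found to pair libraries. The difference in observed ASVs turned to -76.6 with SAH 1 and SAH 2 summed and ran from 14.4 to 684 when a library was left out. That in the Shannon index turned to -0.0125 with the 2 summed and ran from -0.0550 to 0.414 when a library was left out. The log2 Firmicutes to Bacteroidota difference ran from -0.0385 to 0.512 when a library was left out and was 0.573 with the higher depth class alone. The cause of these changes was not tested. The Bray-Curtis share ran from 32.2% to 48.9% without a library, and its p was 0.25 within the replicate block.

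For the taxa of smallest p or past the threshold, and abundant ones at an unadjusted p under 0.05, no alternative gave the opposite sign. Of the fits, 783 fell on the same side of the threshold, 70 passed it newly and 21 lost it. The taxa of smallest p were chosen because their groups did not overlap in these same libraries. Leaving out or summing libraries could then hardly turn a sign, so the absence of opposite signs supports no difference by itself. Of the other abundant taxa, 7 of 16 families and 12 of 19 genera changed sign in at least 1 alternative. Few libraries (3 a group), counts of 0 and the relations among the SAH libraries limit what can be seen. A missed threshold does not show that groups were alike.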
